A study of Mus musculus with 7 samples.

Results

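The 10 kallikrein genes Klk5, Klk6, Klk7, Klk8, Klk9, Klk10, Klk11, Klk12, Klk13 and Klk14 were read in bulk RNA of mouse skin tumours. They were taken by gene name, as the kallikrein-related serine proteases known from epidermis. They are 10 of 55423 features in the count table, and all 10 were among the 24433 features that entered the test, for which 1 or more tumours had to show 5 reads or more.

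The tumours came from mice of 2 genotypes on a C57BL/6J background. In both, a tamoxifen-inducible Cre recombinase under the involucrin promoter (Ivl-CreERT2) switched on 1 BRAFV600E allele in involucrin-positive keratinocytes after topical tamoxifen on the shaved back, at 7 to 10 weeks of age according to the labels. Ivl:BRAFV600E-SOX2LSL mice carried in addition 1 Rosa26 allele from which the same recombination releases SOX2 and eGFP, and 2 of the 3 Ivl:BRAFV600E mice carried a Rosa26 reporter for tdRFP. Tumours were grown to clinical endpoint, and 3 per genotype, each from its own mouse, could be assigned to a group. These are called Ivl:BRAFV600E tumours 1, 2 and 3 and Ivl:BRAFV600E-SOX2LSL tumours 1, 2 and 3 below, where the numbers are only names. Ivl:BRAFV600E tumours came from 2 females and 1 male, and Ivl:BRAFV600E-SOX2LSL tumours from 1 female and 2 males. Every Ivl:BRAFV600E-SOX2LSL tumour was collected sooner after induction than every Ivl:BRAFV600E tumour, so that time and genotype cannot be told apart.

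Kallikrein-related peptidases are secreted serine proteases that the granular layer of the epidermis releases as inactive precursors. Once cleaved, they form a cascade in which KLK5 activates itself and other members, and KLK5, KLK7 and KLK14 cut the desmosomal proteins that hold corneocytes together, so that the surface layer is shed. The inhibitor LEKTI, the product of Spink5, holds them in check, and its loss causes the scaling skin of Netherton syndrome. All values below are levels of RNA, and neither precursor protein nor protease activity was measured.

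The libraries held 23565432 to 31152826 counts, at which 3 counts correspond to 0.0839 to 0.143 CPM (counts per 1000000 counts, after TMM scaling). Sox2 was read at 0.716, 0.508 and 0.238 CPM in Ivl:BRAFV600E tumours 1, 2 and 3 and at 182, 155 and 158 CPM in Ivl:BRAFV600E-SOX2LSL tumours 1, 2 and 3. The transgene's EGFP was read at 0 in the former and at 110 to 139 CPM in the latter. Both matched the genotypes that the study's list of mice gives for these tumours. The keratinocyte genes Krt5 and Krt14 were read at 2371 CPM and 6527 CPM or more in every tumour. Skeletal muscle genes differed between the genotypes, with a summed level of 12.7 to 28.1 CPM in Ivl:BRAFV600E tumours and 926 to 3975 CPM in Ivl:BRAFV600E-SOX2LSL tumours.

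All 10 genes lie on the plus strand of one cluster on chromosome 7. In GRCm38 it runs from chr7:43690418 to 43851181, in the order Klk14, Klk13, Klk12, Klk11, Klk10, Klk9, Klk8, Klk7, Klk6 and Klk5. The genes at its ends were Klk14 (chr7:43690418-43695536) and Klk5 (chr7:43841971-43851181), and the gene with the clearest difference between genotypes, Klk8, lies at chr7:43797577-43803826. An antisense processed transcript, 2310002F09Rik (chr7:43695209-43797958, minus strand), spans from Klk14 to Klk8 and shares 382 bp of exon with Klk8 and 287 bp with Klk14. It reached at most 2.90 CPM in any tumour, and the strand setting of the counting is not given in the sources used here. How reads of the shared stretches were assigned is thus not known. The per-kb levels of Klk8 and Klk14 below divide by their full exon length.

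Because the genotypes differ in SOX2, the RefSeq promoters of the members (250 bases before to 50 after a start, 12 promoters for the 10 genes) were searched on both strands for the SOX letters ACAAAG or ACAATG, the AP-1 letters TGANTCA and the TATA box letters TATAAA. SOX letters occurred in 3 of 12 promoters, against 28.6% of 32851 promoters in all, AP-1 letters in 0 of 12, against 7.81%, and TATAAA in 0 of 12, against 13.6%. Shown are the stretches that hold a match next to a start of Klk11 and Klk6, with the SOX letters in capitals, and the stretch before the start of Klk8, which holds no match and so no capitals. Those of Klk8 and Klk11 end directly before the start, and that of Klk6 ends 50 bases earlier. All are 150 bases of the plus strand of GRCm38.p6, Klk8 from chr7:43797427-43797576, Klk11 from chr7:43776179-43776328 before the second of its starts, and Klk6 from chr7:43824344-43824493.
Klk8: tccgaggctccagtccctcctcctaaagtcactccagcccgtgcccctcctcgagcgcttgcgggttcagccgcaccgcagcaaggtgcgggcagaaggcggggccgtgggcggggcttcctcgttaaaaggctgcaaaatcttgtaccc
Klk11: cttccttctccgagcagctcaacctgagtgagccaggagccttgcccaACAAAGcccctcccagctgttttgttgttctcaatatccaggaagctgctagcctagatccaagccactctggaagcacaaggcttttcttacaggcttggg
Klk6: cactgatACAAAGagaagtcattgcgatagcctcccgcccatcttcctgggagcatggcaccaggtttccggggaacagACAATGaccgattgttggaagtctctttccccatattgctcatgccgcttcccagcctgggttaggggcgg
The match of Klk11 began 102 bases before that start, and those of Klk6 began 193 and 121 bases before its start. Klk12 held ACAAAG 214 bases before its start. A match describes letters only, and occupancy was not measured.

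Among protein-coding genes, the cluster was expressed as a block with sharp edges. Per kb of exon, Klk10 had the highest level of the 10 members in all 6 tumours, 641 ± 75.4 CPM per kb in Ivl:BRAFV600E tumours and 531 ± 160 CPM per kb in Ivl:BRAFV600E-SOX2LSL tumours (mean ± SD, n = 3 each), and Klk12 the lowest, 41.3 ± 6.85 and 23.1 ± 13.2 CPM per kb. Outside the block, Klk4, which starts 30.0 kb after the end of Klk5 and encodes an enamel protease, was read at 0.0361 to 0.647 CPM. Ctu1, which ends 12.1 kb before Klk14, was read at several CPM per kb. The table holds 27 other rows of the kallikrein family, of which 21 had no count in any of the 6 tumours and none reached a mean of 1 CPM.

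**Figure D1:**
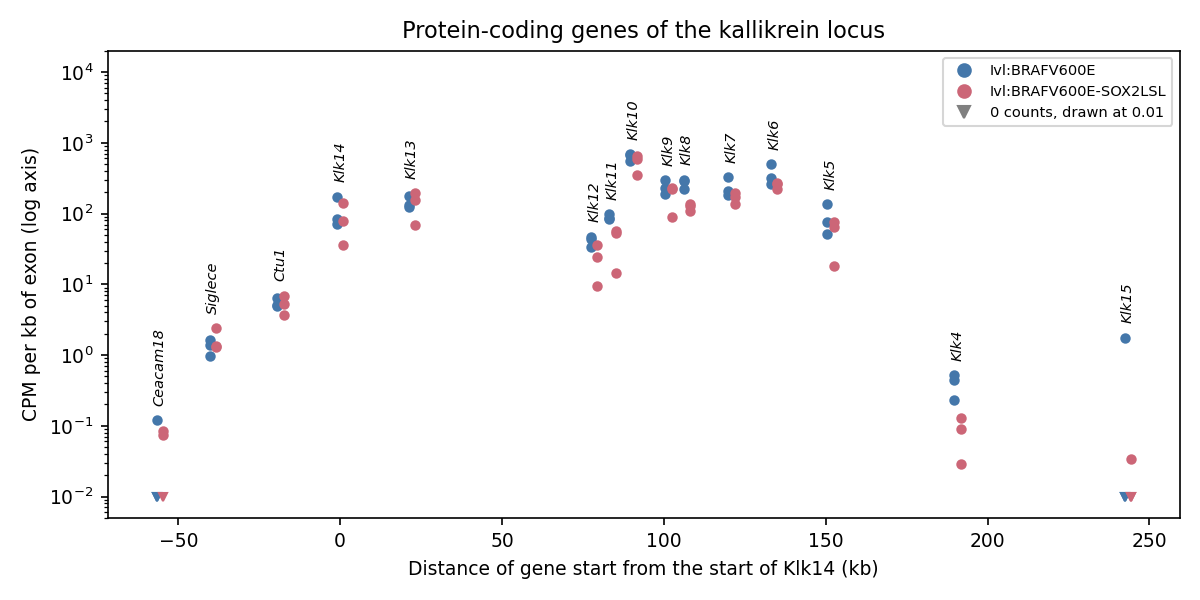
Levels of protein-coding genes along the kallikrein locus, as CPM per kb of exon (log axis) against the distance of each gene's start from the start of Klk14 in kb; each point is 1 tumour, blue for Ivl:BRAFV600E and red for Ivl:BRAFV600E-SOX2LSL, and triangles mark 0 counts. The members from Klk14 to Klk5 stand above every other gene drawn, with Klk10 highest and Klk12 lowest among them.

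In Ivl:BRAFV600E tumours the order of the per-kb levels was Klk10, Klk6, Klk8, Klk7, Klk9, Klk13, Klk14, Klk11, Klk5 and Klk12. Of neighbours in this order, only Klk10 and Klk6, Klk9 and Klk13, and Klk5 and Klk12 had ranges over the 3 tumours that did not overlap. In Ivl:BRAFV600E-SOX2LSL tumours Klk8 stood 6th in place of 3rd, behind Klk10, Klk6, Klk9, Klk7 and Klk13, and only Klk10 and Klk6 had ranges that did not overlap. The 10 genes together took 0.369%, 0.255% and 0.287% of all counts in Ivl:BRAFV600E tumours 1, 2 and 3 and 0.205%, 0.308% and 0.309% in Ivl:BRAFV600E-SOX2LSL tumours 1, 2 and 3. These shares overlapped between the genotypes, with Ivl:BRAFV600E-SOX2LSL tumour 1 lowest.

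The comparison of the genotypes asked whether forced SOX2 in the involucrin-positive population goes with another level of these proteases. Klk8 fell to less than 50% of its level, and the other 9 members did not pass the test. By edgeR's quasi-likelihood test with Benjamini-Hochberg adjustment over all 24433 features at 0.05, 1 of 10 members was called lower and 0 higher, against 1.51% of all features called lower, 2.39% higher and 3.90% in either direction. At an unadjusted p under 0.05, 2 of 10 members passed (Klk8 and Klk11), against 25.7% of all features, and DESeq2 also called Klk8 alone, against 18.2% of the features it tested. The 2 genotypes did not overlap, Ivl:BRAFV600E-SOX2LSL tumours being lower, for 2 of 10 members, against 16.0% of all features, and in the other direction for 0, against 18.2% (34.2% in either direction). The number of members lower without overlap was 5 of 10 without Ivl:BRAFV600E tumour 2 (against 20.2% of all features), without Ivl:BRAFV600E-SOX2LSL tumour 2 (against 4875 of 24433) and with scaling to keratinocyte genes (against 21.8%).

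Klk8, or neuropsin, is a trypsin-like protease known from upper epidermis and from brain. Its level was 446, 463 and 337 CPM in Ivl:BRAFV600E tumours 1, 2 and 3 and 166, 209 and 196 CPM in Ivl:BRAFV600E-SOX2LSL tumours 1, 2 and 3. Every Ivl:BRAFV600E-SOX2LSL tumour lay below every Ivl:BRAFV600E tumour, and within each genotype the 3 tumours were close. The log2 fold change of -1.13 (SE 0.17, edgeR, adjusted p = 0.0266) is a 2.18-fold lower level, with a 95% interval of the fold change from 0.346 to 0.608. In bulk tumour RNA, fewer cells of a type and less RNA per cell cannot be told apart. The call of Klk8 was made under 11 of 16 alternatives, with log2 fold changes between -1.34 and -0.78, and was lost with sex as a covariate (adjusted p = 0.0674) and without Ivl:BRAFV600E tumour 1 (0.126) or 2 (0.0902) or Ivl:BRAFV600E-SOX2LSL tumour 2 (0.0627) or 3 (0.0610).

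**Figure D2:**
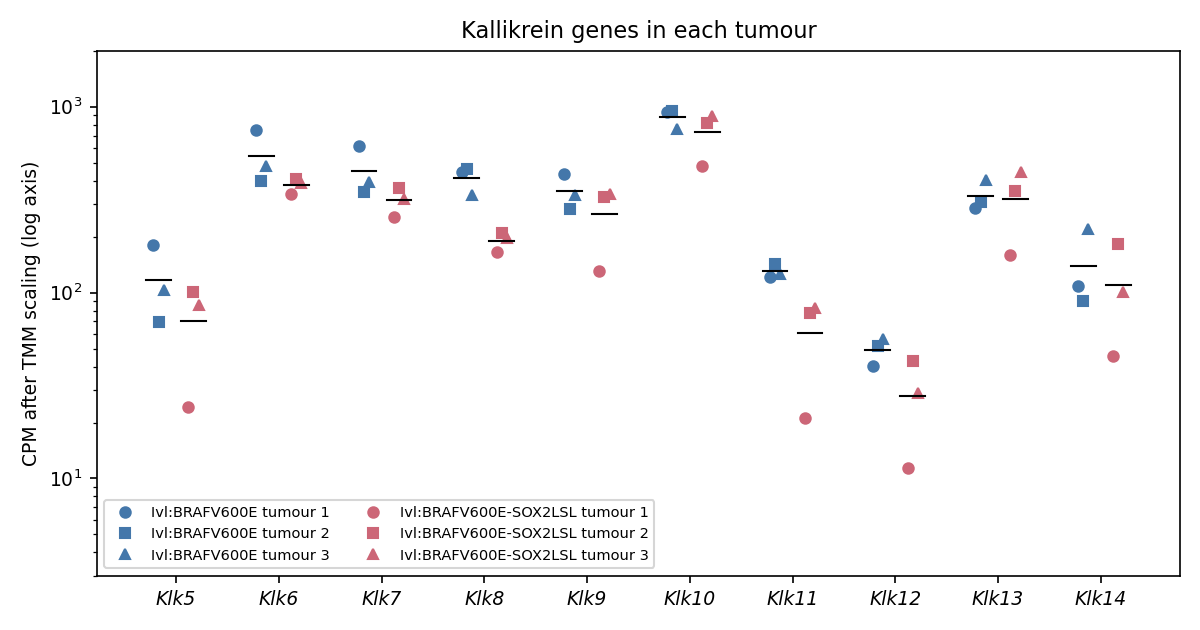
Level of each kallikrein gene in each tumour, as CPM after TMM scaling (log axis); blue points are the 3 Ivl:BRAFV600E tumours, red points the 3 Ivl:BRAFV600E-SOX2LSL tumours, and black lines the means of the 3. For Klk8 and Klk11 the colours do not overlap, and the red circle, Ivl:BRAFV600E-SOX2LSL tumour 1, is the lowest point for all 10 genes.

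Of the proteases that shed the surface layer, Klk5, the trypsin-like protease at the head of the cascade, was read at 179, 69.4 and 103 CPM in Ivl:BRAFV600E tumours and at 24.3, 101 and 85.4 CPM in Ivl:BRAFV600E-SOX2LSL tumours. Apart from the low Ivl:BRAFV600E-SOX2LSL tumour 1 the values overlapped, and the log2 fold change of -0.74 (SE 0.54, edgeR, adjusted p = 0.424) did not pass the test. Klk7, the chymotrypsin-like protease that cuts corneodesmosin, stood at 614, 349 and 392 CPM against 255, 366 and 320 CPM. Its groups overlapped through Ivl:BRAFV600E tumour 2 and Ivl:BRAFV600E-SOX2LSL tumour 2, with a log2 fold change of -0.53 (SE 0.25, edgeR, adjusted p = 0.235). Klk14, a trypsin-like protease of the same cascade, was read at 108, 89.9 and 220 CPM against 45.8, 182 and 101 CPM. Here 1 tumour of each genotype stood above the others of its group, and the log2 fold change was -0.35 (SE 0.52, edgeR, adjusted p = 0.709). The 95% intervals of the fold change reached from 0.247 to 1.45 for Klk5, from 0.463 to 1.04 for Klk7 and from 0.335 to 1.84 for Klk14.

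Klk6, a trypsin-like protease also known from the nervous system, followed Klk7 across the tumours, with 754, 398 and 480 CPM in Ivl:BRAFV600E tumours and 340, 409 and 391 CPM in Ivl:BRAFV600E-SOX2LSL tumours. The groups overlapped, and the log2 fold change of -0.52 (SE 0.25, edgeR, adjusted p = 0.238) was nearly that of Klk7. Ivl:BRAFV600E tumour 1 was the highest for Klk5, Klk6 and Klk7, and without it their log2 fold changes were -0.29, -0.21 and -0.24. Klk10, the most abundant member, which was first described as a gene silenced in breast cancer cells, was read at 935, 945 and 761 CPM against 480, 813 and 894 CPM. Only Ivl:BRAFV600E-SOX2LSL tumour 1 lay apart, and the log2 fold change was -0.27 (SE 0.25, edgeR, adjusted p = 0.527), with an interval of the fold change from 0.551 to 1.25.

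Klk11, a trypsin-like protease that sits next to Klk10 and Klk12, was read at 121, 143 and 126 CPM in Ivl:BRAFV600E tumours and at 21.3, 77.2 and 83.1 CPM in Ivl:BRAFV600E-SOX2LSL tumours. The groups did not overlap, but Ivl:BRAFV600E-SOX2LSL tumour 1 stood far below the other two of its group. The log2 fold change of -1.10 (SE 0.45) had an unadjusted p of 0.0437 and missed the threshold after adjustment (edgeR, adjusted p = 0.182). Without that tumour the difference was smaller, -0.70, and passed (edgeR, adjusted p = 0.0203). Klk12, another trypsin-like member, was read at 40.2, 51.5 and 56.1 CPM against 11.3, 42.9 and 28.7 CPM. The groups overlapped through Ivl:BRAFV600E-SOX2LSL tumour 2 alone, and the log2 fold change was -0.83 (SE 0.43, edgeR, adjusted p = 0.266).

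Klk9, a chymotrypsin-like member, was read at 436, 280 and 336 CPM in Ivl:BRAFV600E tumours and at 130, 326 and 339 CPM in Ivl:BRAFV600E-SOX2LSL tumours. Klk13, a trypsin-like member, was read at 284, 307 and 401 CPM against 160, 353 and 445 CPM. In both genes Ivl:BRAFV600E-SOX2LSL tumours 2 and 3 lay within or above the range of the Ivl:BRAFV600E tumours and tumour 1 lay below it. The log2 fold changes were -0.40 (SE 0.36, edgeR, adjusted p = 0.517) for Klk9 and -0.051 (SE 0.36, edgeR, adjusted p = 0.946) for Klk13, with intervals of the fold change from 0.419 to 1.37 and from 0.541 to 1.72.

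All 10 log2 fold changes were below 0, with a median of -0.52 against 0.043 over all features tested. This shared sign depended on scaling and on single tumours: with plain CPM, which moves the median of all features to 0.39, Klk10 was at 0.057 and Klk13 at 0.26, and with limma voom Klk13 was at 0.14. Without Ivl:BRAFV600E-SOX2LSL tumour 1, Klk13 was at 0.27 and Klk14 at 0.015, and Klk9 and Klk10 were at -0.078 and -0.046. With library factors from 15 keratinocyte genes, which move the median of all features to -0.15, all 10 stayed below 0, from -0.29 for Klk13 to -1.38 for Klk11.

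**Figure D3:**
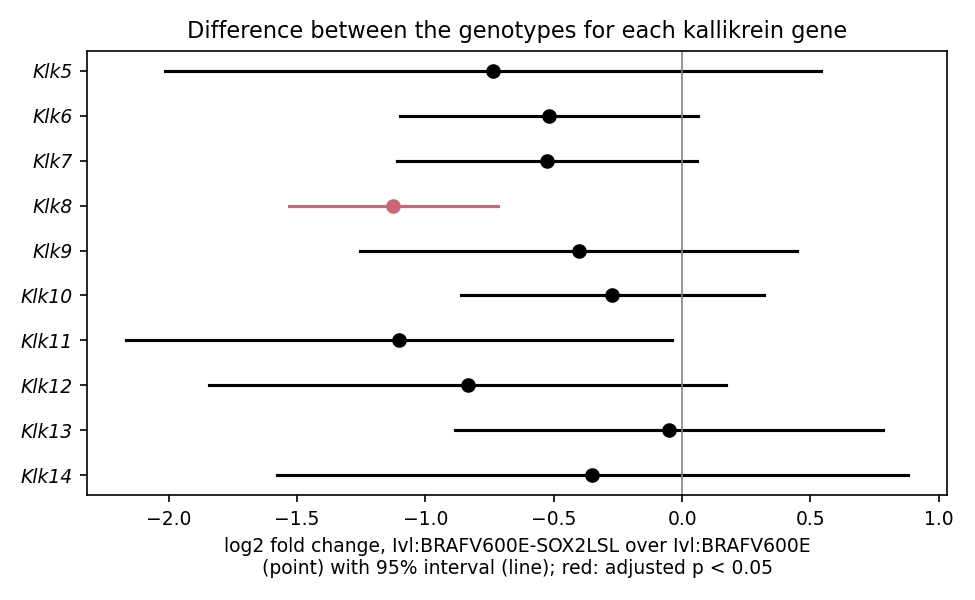
Log2 fold change of each kallikrein gene, Ivl:BRAFV600E-SOX2LSL over Ivl:BRAFV600E tumours (n = 3 each, edgeR), with its 95% interval as a line; red marks an adjusted p under 0.05. Klk8 alone is red, and the intervals of the other genes except Klk11 cross 0.

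Ivl:BRAFV600E-SOX2LSL tumour 1 had the lowest level of the 6 tumours for 10 of 10 members. Relative to the mean log2 level of its own group, of which it is part, its median deviation was -0.89. Among Ivl:BRAFV600E tumours the deviations were mixed: tumour 1 was above its group's mean for 6 members, tumour 2 for 4 and tumour 3 for 3. The summed level of the 10 genes was 3916, 3096 and 3212 CPM in Ivl:BRAFV600E tumours and 1633, 2878 and 2883 CPM in Ivl:BRAFV600E-SOX2LSL tumours. The sums did not overlap, the highest of the latter lying just below the lowest of the former, though the shares of unscaled counts did.

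Klk8 was the least spread of the members within Ivl:BRAFV600E-SOX2LSL tumours after Klk6: the highest tumour was 1.26 times the lowest for Klk8 and 1.20 times for Klk6. The same quotient was 1.44 for Klk7 and 1.86 for Klk10, and from 2.60 for Klk9 to 4.17 for Klk5 in the others. In Ivl:BRAFV600E tumours it ran from 1.18 for Klk11 to 2.59 for Klk5.

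Ratios of 2 members within a tumour do not depend on scaling. Of 45 pairs, 7 (15.6%) had ratios that did not overlap between genotypes, and 3 of these held Klk8 and 3 Klk11. Of the levels of all single features 34.2% did not overlap, which is another measure than a ratio. No share was computed for ratios of other genes, so that the count of pairs is a description and sets no member apart. The ratio of Klk8 to Klk10 was 0.477, 0.491 and 0.443 in Ivl:BRAFV600E tumours and 0.346, 0.257 and 0.220 in Ivl:BRAFV600E-SOX2LSL tumours. The ratio of Klk10 to Klk11 was 7.72, 6.61 and 6.04 against 22.6, 10.5 and 10.8. In these 2 pairs every tumour of one genotype lay on the same side of the other genotype. Within the summed per-kb level of the cluster, Klk8 made up 11.4%, 14.9% and 10.5% in Ivl:BRAFV600E tumours and 10.2%, 7.24% and 6.88% in Ivl:BRAFV600E-SOX2LSL tumours.

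Several inhibitors of these proteases were lower in Ivl:BRAFV600E-SOX2LSL tumours. Of 10 tested genes of an inhibitor list, 4 fell and 0 rose, against 1.51% of all features called lower and 2.39% higher, and the median log2 fold change was -2.24. The number called was 0 without Ivl:BRAFV600E tumour 1 or 2, 1 without Ivl:BRAFV600E tumour 3, 2 without Ivl:BRAFV600E-SOX2LSL tumour 3 and 5 without Ivl:BRAFV600E-SOX2LSL tumour 1. Calls over all features moved likewise, to 22 and 50, 179, 412 and 1575 in these fits, against 954 with all tumours. Whether inhibitors and kallikreins differ in their change was not tested. Spink5, which encodes LEKTI, was read at 2222, 3156 and 2141 CPM in Ivl:BRAFV600E tumours and at 381, 887 and 481 CPM in Ivl:BRAFV600E-SOX2LSL tumours, with a log2 fold change of -2.10 (SE 0.35, edgeR, adjusted p = 0.0293). Serpina12, or vaspin, which inhibits KLK7, stood at 415, 655 and 427 CPM against 7.55, 53.6 and 46.7 CPM (log2 fold change -3.80, edgeR, adjusted p = 0.0357). In both genes all Ivl:BRAFV600E-SOX2LSL tumours lay far below all Ivl:BRAFV600E tumours.

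The other 2 inhibitors that fell were Spink7, with a log2 fold change of -4.27 (edgeR, adjusted p = 0.0331), and Slpi, a secreted inhibitor of leukocyte and epidermal serine proteases, at -1.90 (edgeR, adjusted p = 0.0138). Spink6, an inhibitor of several kallikreins, was low in every tumour but Ivl:BRAFV600E tumour 1. It was read at 10.1, 0.185 and 0.333 CPM against 0, 0.0648 and 0.144 CPM, and did not pass (edgeR, adjusted p = 0.113). The tests of Spink5, Spink7, Serpina12 and Slpi passed under 11, 12, 10 and 14 of 16 alternatives, but in only 2, 2, 1 and 4 of the 6 fits without 1 tumour. With sex as a covariate, where 228 features were called in all, Spink5 (log2 fold change -2.12, edgeR, adjusted p = 0.0818) and Serpina12 (-3.66, 0.0823) did not pass at folds of nearly the same size.

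Per tumour, the quotient of Spink5 counts over Klk7 counts was 3.62, 9.04 and 5.47 in Ivl:BRAFV600E tumours and 1.495, 2.42 and 1.503 in Ivl:BRAFV600E-SOX2LSL tumours. Over Klk10 it was 2.38, 3.34 and 2.82 against 0.794, 1.09 and 0.538. Both sets of quotients were apart, and the same held for 8 of 10 members, against 77.8% of the other 24432 features tested in place of a member, so that the count reflects Spink5 and sets no kallikrein apart. The exceptions were Klk5, with 12.4, 45.5 and 20.8 against 15.7, 8.75 and 5.63, and Klk11, with 18.4, 22.1 and 17 against 17.9, 11.5 and 5.79. These are quotients of counts, not per length, and not of protein.

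Among 24 tested proteases of epidermis outside the family, 2 rose and 1 fell, against 2.39% and 1.51% of all features, with a median log2 fold change of 0.18. The number called was 0 without Ivl:BRAFV600E tumour 1 or 2 or Ivl:BRAFV600E-SOX2LSL tumour 2, 1 without either tumour 3, and 7 without Ivl:BRAFV600E-SOX2LSL tumour 1, where calls over all features numbered 22, 50 and 202, then 179 and 412, and 1575. Prss8, a membrane-anchored protease that acts with matriptase, was read at 60.0, 59.2 and 51.6 CPM in Ivl:BRAFV600E tumours and at 23.5, 31.9 and 30.2 CPM in Ivl:BRAFV600E-SOX2LSL tumours (log2 fold change -0.998, edgeR, adjusted p = 0.0267). St14, which encodes matriptase, an activator of kallikrein precursors, stood at 137, 139 and 125 CPM against 181, 134 and 130 CPM (log2 fold change 0.15, edgeR, adjusted p = 0.589). Its sign turned without Ivl:BRAFV600E-SOX2LSL tumour 1 and with keratinocyte scaling. The genes that rose were Plau, which encodes urokinase, with a log2 fold change of 1.07 (edgeR, adjusted p = 0.0206), and the membrane protease gene Tmprss11b, at 1.73 (edgeR, adjusted p = 0.0256). Prss8 and Tmprss11b each passed in 1 of the 6 fits without 1 tumour and Plau in 3, and with sex as a covariate Prss8 (edgeR, adjusted p = 0.0696) and Tmprss11b (0.0625) did not pass.

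Among 14 tested substrates and targets of kallikreins, 1 fell and 0 rose, against 1.51% and 2.39% of all features, with a median log2 fold change of -0.99. This was Dsg1a, a desmoglein of the upper epidermis, at 1843, 3165 and 2631 CPM against 186, 758 and 513 CPM (log2 fold change -2.39, edgeR, adjusted p = 0.0490). Its call was lost with sex as a covariate (edgeR, adjusted p = 0.115) and in 5 of the 6 fits without 1 tumour, all but that without Ivl:BRAFV600E-SOX2LSL tumour 1, where 6 genes of the list were called. Cdsn, which encodes corneodesmosin, stood at -1.92 (edgeR, adjusted p = 0.0511), Dsc1 at -2.38 (0.0646), Dsg1b at -1.69 (0.1098) and Flg at -1.74 (0.163). For these 4 genes the test was not passed. Over the list, 8 of 14 genes were lower and 1 was higher without overlap, against 16.0% and 18.2% of all features. F2rl1, which encodes the receptor PAR2 that kallikreins can cut, was read at 14.6, 13.4 and 13.6 CPM against 42.6, 20.4 and 25.5 CPM, with a log2 fold change of 1.09 (edgeR, adjusted p = 0.0695).

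**Figure D4:**
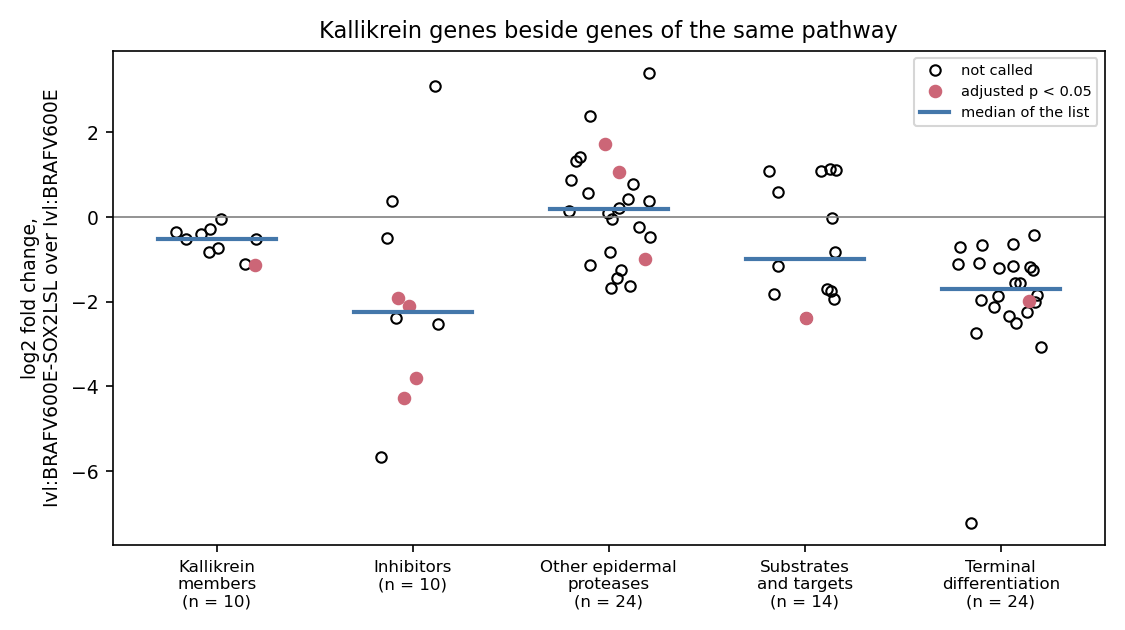
Log2 fold change, Ivl:BRAFV600E-SOX2LSL over Ivl:BRAFV600E tumours, of the kallikrein genes and of the tested genes of 4 lists; each circle is 1 gene, red where the adjusted p is under 0.05, and the blue line is the list's median. The kallikrein genes have a median of -0.52, between other proteases at 0.18 and inhibitors at -2.24, and spread less than each of the other lists.

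Markers of cell state and of other cell types moved between the same groups. For 24 of 24 terminal differentiation genes the log2 fold change was below 0, with a median of -1.70. Of these, 19 did not overlap, against 16.0% of all features that were lower without overlap, and 1, Sbsn, was called, against 1.51%. The number called ran from 0 without Ivl:BRAFV600E tumour 1, 2 or 3 or Ivl:BRAFV600E-SOX2LSL tumour 2 to 15 without Ivl:BRAFV600E-SOX2LSL tumour 1 and 18 with DESeq2, where calls over all features numbered 22, 50, 179 and 202, then 1575 and 3653. Their summed level was 91896 to 114348 CPM in Ivl:BRAFV600E tumours and 5185 to 31323 CPM in Ivl:BRAFV600E-SOX2LSL tumours. Krt1 was read at 32193, 45410 and 44317 CPM against 1010, 11871 and 13009 CPM, and Krt10 at 28856, 36337 and 31841 CPM against 424, 3993 and 7213 CPM. Ivl:BRAFV600E-SOX2LSL tumour 1, the lowest for all 10 kallikrein genes, was thus also the lowest for both keratins. The mean log2 level of the 10 kallikrein genes minus that of the terminal differentiation genes was -1.53, -1.53 and -1.11 in Ivl:BRAFV600E tumours and 0.11, -0.19 and -0.45 in Ivl:BRAFV600E-SOX2LSL tumours. Minus that of 15 keratinocyte genes it was -1.71, -2.10 and -1.96 against -3.31, -2.54 and -2.54. Neither pair of groups overlapped. By summed levels, the kallikrein genes came to 4.26%, 2.71% and 3.16% against 31.5%, 10.2% and 9.21% of the differentiation genes, again without overlap, but to 9.31%, 4.29% and 5.496% against 7.02%, 5.72% and 7.26% of the keratinocyte genes, where the groups overlapped. The comparison with the keratinocyte genes thus depended on how the list was averaged.

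Of 23 tested skeletal muscle genes 18 were called higher, and of 15 myeloid genes 2, against 2.39% of all features. The myeloid genes had log2 fold changes above 0 in 15 of 15 cases (median 1.70), and 11 were higher without overlap, against 18.2% of all features, while their sums, 415 to 1378 CPM against 1014 to 2267 CPM, overlapped. The 15 keratinocyte genes summed to 42059 to 72206 CPM against 23267 to 50352 CPM, while 9 of 15 had log2 fold changes above 0 (median 0.29), and 1 of them, Epcam, was called higher. Their mean log2 CPM was 9.80 to 9.94 against 9.82 to 10.27. Of 14 tested genes of distal limb position 5 were called lower, against 1.51% of all features, with a summed level of 92.5 to 512 CPM against 34.0 to 48.5 CPM. Without overlap 8 were lower and 2 higher, against 16.0% and 18.2% of all features. Those higher were Pitx1, at 25.6, 29.8 and 31.4 CPM against 43.7, 32.4 and 41.9 CPM, and Hoxd10, at 0.139 to 0.285 CPM against 0.389 to 0.469 CPM. Pitx1 thus made up most of the sum in Ivl:BRAFV600E-SOX2LSL tumours. Among the 5 called lower were Krt9, a keratin of palms and soles, at 13.6, 390 and 378 CPM against at most 0.0971 CPM, and Hoxa13, Hoxc11 and Hoxc12 at 0 counts in every Ivl:BRAFV600E-SOX2LSL tumour. The body site of these tumours is not given in the labels, and the study describes lesions of the Ivl:BRAFV600E model on the back and also on paws, ears and lips. The part of these differences in the levels of the kallikrein genes was not tested.

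The profiles nearest to each member were sought among 14430 genes with a mean of at least 1 CPM, as the smallest root mean square difference of centred log2 CPM over the 6 tumours. Klk6 and Klk7 were near to each other (0.0834), and the nearest gene to both was Fancb, at 0.0375 and 0.0793. No other member had another member among its 2 nearest genes. Nearest to Klk8 were Mtm1 (0.0691) and Ttc39b (0.0741), to Klk10 Impdh1 (0.0573) and Ankrd13b (0.0638), and to Klk11 Sox7 (0.0902) and Gsdma (0.0978). Klk9 had Gm47341 (0.107) and Cachd1 (0.118) nearest to it, Klk12 had Duox1 among its 2 nearest (0.153), and Klk13 had Slc5a10 (0.120) and Nrbp2 (0.122) nearest to it. The least matched were Klk5, with Gm47111 (0.219) and AC115752.1 (0.271), and Klk14, with Gm12248 (0.247) and Sh3rf2 (0.271). With 6 tumours and so many genes, such nearness is a description only.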

How the data were processed

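Tumour RNA was depleted of ribosomal RNA and sequenced as paired-end reads. Per the labels and the methods of the study, the authors used FastQC 0.11.8 for quality control, TrimGalore for trimming, HISAT2 2.1.0 for alignment to the mouse genome GRCm38 and featureCounts (Subread 1.6.3) for counting per gene, and they deposited read counts per tumour, not normalised. The study states that tumours of both genotypes were sequenced in a common batch. Strand and multimapping settings are not given in the sources used here. Its 7 columns carry the names of mice. The groups of 6 were taken from the mouse list of the study, 3 per genotype, and 1 column of per-sample values could not be assigned and was not used. The labels list 4 Ivl:BRAFV600E and 3 Ivl:BRAFV600E-SOX2LSL samples, so 3 were compared with 3.

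Genes that reached 5 reads in 1 tumour or more were tested with edgeR 4.0.16 in R 4.3.3 (quasi-likelihood, TMM, Benjamini-Hochberg over all genes, threshold 0.05, no covariate). Log2 CPM used a prior count of 2. Per-kb levels are CPM over the merged exon length in GENCODE, and coordinates are of GRCm38. Promoters are those of RefSeq (GRCm38.p6), and all 10 members matched by symbol. Intervals of a fold change are at 95%. Scripts were tested on simulated counts. Figures were drawn with matplotlib 3.10.9 in Python 3.11.15.

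Alternatives were DESeq2 1.42.0, limma 3.58.1 voom with sample weights, other size factors, other filters, sex as a covariate and leaving out each tumour. Scaling to keratinocyte genes, plain CPM for the fits and lists, and all alternatives for named genes outside the family were added after seeing the data. Members and lists were chosen with earlier results of these data known. Named genes are every member, the genes called in each pathway list with a fixed set (Spink5, Spink6, St14, Prss8, Cdsn, Dsg1a, Dsg1b, Dsc1, Flg, F2rl1), the 2 nearest profiles per member and check genes. Epcam, Krt9, Hoxa13, Hoxc11, Hoxc12, Pitx1, Hoxd10, Klk4, Ctu1, Gm36546 and 2310002F09Rik are outside this rule and were named after their values were seen. 1 result under the rule is not reported here. Of the marker lists, the median log2 fold change was 1.13 for fibroblast, 2.79 for adipocyte, 2.61 for mucosal epithelium, -1.20 for hair and sebaceous, 0.69 for lymphoid, 0.19 for endothelial and 0.99 for melanocyte genes. The mean log2 CPM of adipocyte genes was -1.08, -1.28 and -0.73 in Ivl:BRAFV600E tumours and 3.05, -0.98 and -0.31 in Ivl:BRAFV600E-SOX2LSL tumours. For mucosal genes it was 0.68, 0.92 and 1.26 against 3.94, 1.58 and 1.25. For hair and sebaceous genes it was 3.52, -1.99 and 3.10 against -1.03, 1.15 and 2.44, with Ivl:BRAFV600E tumour 2 lowest. Ivl:BRAFV600E-SOX2LSL tumour 1, the lowest for every member, thus stood above the others for adipocyte and mucosal genes.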

Additional observations from a re-analysis of the deposited data

How the results depend on the processing

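Klk8 stayed below 0 under all 16 alternatives and lost its call with sex as a covariate (-1.03), which left 0 members called lower, and in 4 of the 6 fits without 1 tumour, where its log2 fold change ran from -1.26 to -1.04. Without 1 tumour Klk11 ran from -1.40 to -0.70 and passed only at the latter, Klk13 from -0.37 to 0.27 (0.11 without Ivl:BRAFV600E tumour 3) and Klk14 from -0.93 to 0.14 (0.14 without Ivl:BRAFV600E tumour 3, 0.015 without Ivl:BRAFV600E-SOX2LSL tumour 1). Klk10 turned to 0.057 and Klk13 to 0.26 with plain CPM, and Klk13 to 0.14 with limma voom; the cause was not tested. Members called lower without 1 tumour numbered 0 to 2. Members lower without overlap numbered 4 with upper-quartile scaling (against 4878 of 24433 features), 5 with keratinocyte scaling (against 21.8%) and 2 to 5 without 1 tumour (against 19.4% to 21.8%).

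Genes called over the whole table numbered 954 in edgeR, 3653 in DESeq2, 2142 in limma, 228 with sex, 1974 with plain CPM, 1502 with keratinocyte scaling, 1759 without a filter and 22 to 1575 without 1 tumour. Calls were 0 to 5 among inhibitors without 1 tumour, with a list median from -2.91 to -1.87. Among other proteases they were 13 with DESeq2, 7 with plain CPM and with keratinocyte scaling, and 0 to 7 without 1 tumour. Among substrates they were 8 with DESeq2, 2 with its size factors, 5 with plain CPM, 6 with keratinocyte scaling and 0 to 6 without 1 tumour, and among terminal differentiation genes 18, 6 (plain CPM), 16 (keratinocyte scaling) and 0 to 15. St14 turned to -0.018 with keratinocyte scaling and ran from -0.020 (without Ivl:BRAFV600E-SOX2LSL tumour 1) to 0.24 without 1 tumour. No paired analysis was possible because the columns carry no replicate number. Each member had at least 405 counts in every tumour.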
